A study of Mus musculus with 12 samples.

Results

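The liver's response to interleukin-6 (IL-6) in control mice was compared with its response to interferon-gamma (IFN-γ) in Ifng-null mice, both read on the same kind of Affymetrix mouse array. Of the 12 arrays of the study, the 8 of 4 groups enter the comparison, and the members were all probe sets other than the 66 array controls, 12422 of 12488. Control mice were albumin-cre(-) Socs3(w/fl): they carried a wild-type and a floxed Socs3 allele, which stays intact without the Cre recombinase, and the albumin promoter that drives this Cre is active in hepatocytes. They were injected intraperitoneally with phosphate-buffered saline (PBS) or IL-6. Interferon-gamma-/- mice were injected with PBS or IFN-γ. All were killed after 4 h, and total liver RNA was measured in 2 replicate arrays per group. The labels give no Socs3 alleles for the Ifng-null mice and no cytokine dose, age, strain or sex, and they do not say that replicates were separate mice, so p-values cover the spread between arrays alone, which may be technical. Genotype and cytokine change together between the arms, so what belongs to each cannot be told apart.

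IL-6 signals through the receptor subunit gp130 and JAK kinases, mainly to the transcription factor STAT3, and in hepatocytes it is the classic inducer of acute phase proteins. IFN-γ signals through its own receptor and JAK kinases and induces antiviral GTPases, chemokines, antigen presentation and further transcription factors. GAS and ISRE elements are short promoter sequences through which interferons switch genes on. SOCS3 is a feedback inhibitor that binds gp130 and restrains IL-6 signalling, while SOCS1 is the main feedback inhibitor of IFN-γ.

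The value of a probe set is its deposited intensity on a linear scale. Intensities below a floor of 33.1 were set to the floor and log2 was taken, and the 9633 probe sets above the floor on at least 2 arrays were tested. A response is the log2 change from PBS to cytokine, and the difference is the IL-6 response minus the IFN-γ response, so a negative difference means a larger response to IFN-γ. A difference was called at a limma Benjamini-Hochberg adjusted p under 0.05 over all 9633 probe sets. Responses are said not to overlap when the smallest response of 1 cytokine, its lowest array minus the highest PBS array, exceeds the largest response of the other. Median intensities of the arrays ranged from 80.6 to 85.7, and replicates correlated with Pearson's r of 0.985 to 0.991 in the 4 groups. The smallest p that an exact permutation test (two-sided) allows for 2 arrays against 2 is 0.333. Tests of single genes therefore used limma, whose error estimate comes from all 6 groups of the study. Arrays outside the comparison that lie far apart thus widen an SE.

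The difference between the responses was called for 5 probe sets, 0.0519% of those tested, and in all 5 the response to IFN-γ was the larger. They belong to Samhd1, Cmpk2, Gbp3 and Irf8 and to the probe set 102860_at, which the annotation table does not list and which is unnamed here. No probe set was called with a larger response to IL-6 by limma, while 229 probe sets reached an unadjusted p under 0.05 in either direction. The promoters of the 4 named genes are shown because their responses differed, and that of Gas6 because it came closest to a call in the opposite direction. They run from 250 bases before to 50 bases after the gene's start in RefSeq's annotation of GRCm38.p6, are printed 5′ to 3′ on the gene's strand, and have capitals where a script found a GAS (TTCNNNGAA) or ISRE (GAAA, any 2 bases, GAAA) motif on either strand. The Samhd1 promoter is chr2:157135047-157135346 on the minus strand, Cmpk2 chr12:26468965-26469264 on the plus strand, Gbp3 chr3:142559794-142560093 on the plus strand, Irf8 chr8:120736108-120736407 on the plus strand and Gas6 chr8:13494486-13494785 on the minus strand.
Samhd1: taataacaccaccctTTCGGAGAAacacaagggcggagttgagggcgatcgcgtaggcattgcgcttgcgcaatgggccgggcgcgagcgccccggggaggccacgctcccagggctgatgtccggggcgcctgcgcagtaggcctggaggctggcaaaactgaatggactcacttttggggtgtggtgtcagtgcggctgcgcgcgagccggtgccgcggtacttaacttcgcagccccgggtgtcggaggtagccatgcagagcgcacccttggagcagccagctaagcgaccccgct
Cmpk2: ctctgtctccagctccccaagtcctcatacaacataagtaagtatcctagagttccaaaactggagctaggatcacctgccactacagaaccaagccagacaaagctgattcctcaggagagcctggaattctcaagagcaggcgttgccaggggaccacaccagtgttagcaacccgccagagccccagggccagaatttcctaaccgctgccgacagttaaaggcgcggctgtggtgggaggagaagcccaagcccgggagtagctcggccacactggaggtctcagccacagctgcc
Gbp3: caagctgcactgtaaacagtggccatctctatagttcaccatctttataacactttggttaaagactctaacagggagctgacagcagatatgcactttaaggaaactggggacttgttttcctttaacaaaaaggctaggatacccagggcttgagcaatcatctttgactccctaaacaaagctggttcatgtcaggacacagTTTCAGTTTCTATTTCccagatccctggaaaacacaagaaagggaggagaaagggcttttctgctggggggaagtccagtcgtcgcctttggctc
Irf8: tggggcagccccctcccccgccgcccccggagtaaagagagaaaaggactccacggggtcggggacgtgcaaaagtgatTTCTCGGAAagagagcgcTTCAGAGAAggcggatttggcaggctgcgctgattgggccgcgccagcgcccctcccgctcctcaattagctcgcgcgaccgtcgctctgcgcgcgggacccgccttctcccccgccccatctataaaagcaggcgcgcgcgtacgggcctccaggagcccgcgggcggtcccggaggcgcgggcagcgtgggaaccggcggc
Gas6: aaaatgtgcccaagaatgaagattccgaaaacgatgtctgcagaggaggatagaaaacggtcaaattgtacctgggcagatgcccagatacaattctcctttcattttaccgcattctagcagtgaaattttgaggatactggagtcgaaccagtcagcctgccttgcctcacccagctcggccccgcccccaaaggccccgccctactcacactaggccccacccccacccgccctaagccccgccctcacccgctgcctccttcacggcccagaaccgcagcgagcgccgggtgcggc

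The Samhd1 promoter held a GAS match, TTCGGAGAA, beginning 235 bases before the start. The Irf8 promoter held a pair of GAS matches, TTCTCGGAA and TTCAGAGAA, beginning 171 and 153 bases before the start. In the Gbp3 promoter the ISRE motif matched on the opposite strand in the overlapping stretches TTTCAGTTTC and TTTCTATTTC, beginning 45 and 39 bases before the start. The Cmpk2 and Gas6 windows held neither set of letters. Over the first listed promoters of 27025 genes, 8.47% held a GAS match, 3.49% an ISRE match and 11.4% either. A match is a description of letters, not of a bound site.

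Samhd1, a dNTP hydrolase that restricts viruses, gave the largest called difference. Its intensities were 52.3 and 51.8 after PBS and 90.8 and 53.7 after IL-6 in control mice, and 68.3 and 51.8 after PBS and 1148 and 1185 after IFN-γ in Ifng-null mice. Both IFN-γ arrays stood far above all others, and of the IL-6 arrays 1 stood above and 1 among the PBS arrays. The response was 0.42 on the log2 scale to IL-6 and 4.29 to IFN-γ, a difference of -3.87 ± 0.35 (SE, n = 2 arrays per group; limma adjusted p = 0.00601).

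Cmpk2, a mitochondrial nucleotide kinase that is interferon-inducible, had intensities of 43.2 and 45.5 after PBS and 51.3 and 44.3 after IL-6 in control mice, and of 48.0 and 44.9 after PBS and 340 and 254 after IFN-γ. The IL-6 arrays overlapped the PBS arrays, and the IFN-γ arrays did not. The responses of 0.10 and 2.66 gave a difference of -2.56 ± 0.25 (SE; limma adjusted p = 0.00601).

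Irf8, a transcription factor of macrophages and of the interferon response, read 81.0 and 87.3 after PBS and 85.0 and 101 after IL-6 in control mice, and 80.5 and 71.0 after PBS and 288 and 268 after IFN-γ. The IL-6 and PBS arrays overlapped in control mice, and both IFN-γ arrays were higher than all 6 others. The responses of 0.14 to IL-6 and 1.88 to IFN-γ gave a difference of -1.74 ± 0.17 (SE; limma adjusted p = 0.00601).

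Gbp3, an interferon-induced guanylate-binding GTPase, read 79.7 and 81.9 after PBS and 144 and 103 after IL-6 in control mice, and 82.6 and 98.9 after PBS and 678 and 742 after IFN-γ. Here both IL-6 arrays lay above both control PBS arrays, though far below the IFN-γ arrays. The responses were 0.59 and 2.97, with a difference of -2.38 ± 0.27 (SE; limma adjusted p = 0.0159).

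The unnamed probe set 102860_at read 434 and 404 after PBS, 458 and 493 after IL-6, 498 and 352 after PBS in Ifng-null mice, and 1876 and 2370 after IFN-γ. The IFN-γ arrays stood apart from the other 6. Its difference was -2.15 ± 0.25 (SE; limma adjusted p = 0.0189).

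**Figure D1:**
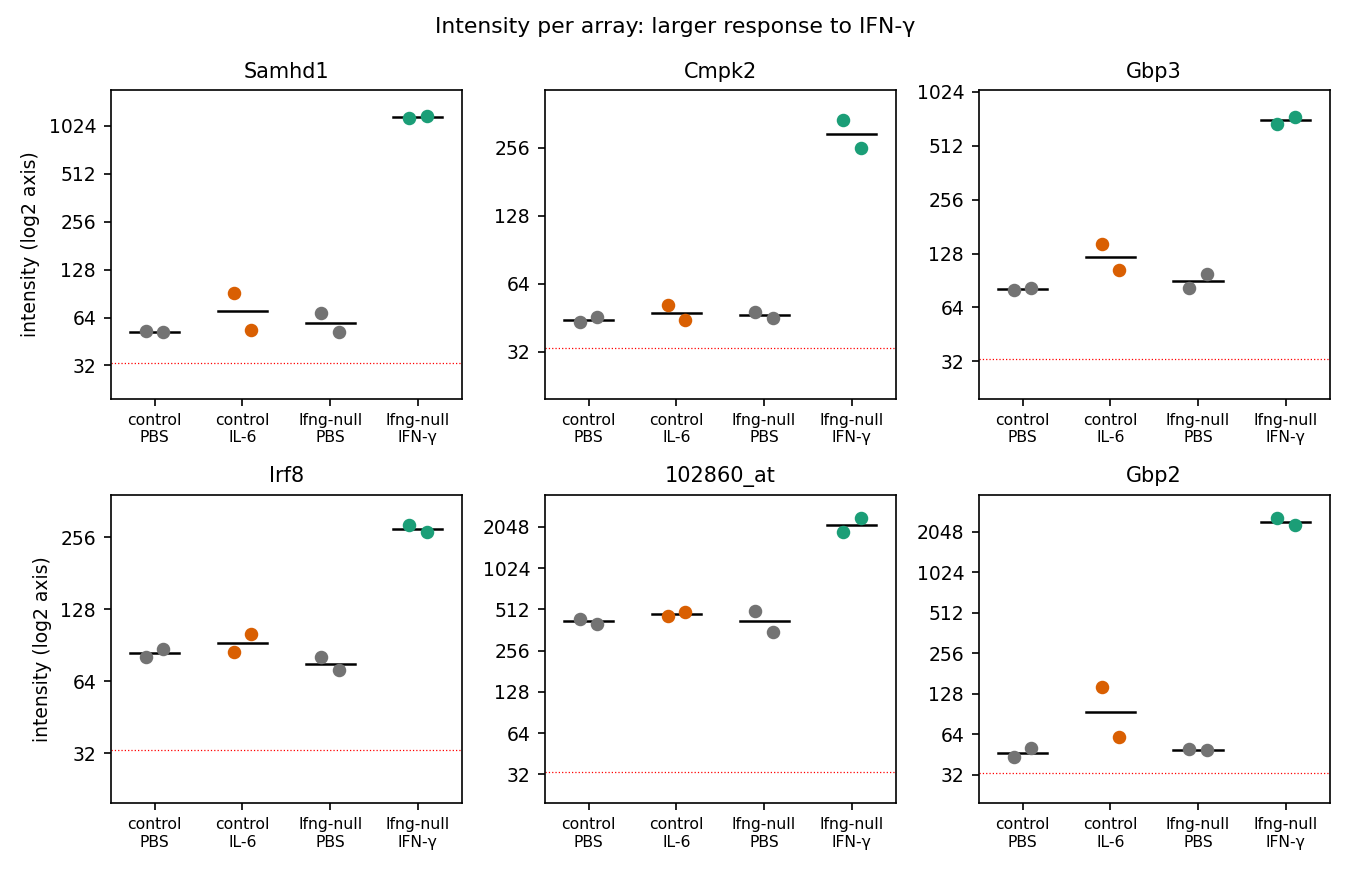
Intensity per array on log2 axes for the 5 probe sets whose responses were called different and for Gbp2, whose difference was not called. Points are single arrays, black bars the mean of log2 values, the dotted red line the floor of 33.1, and in each panel the 2 IFN-γ arrays lie above the other 6.

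These 5 calls depend on single arrays. Without either control PBS array no difference was called, and without the second IL-6 array 2 were, while 9 were called without the first IL-6 array and 13 without the first IFN-γ array. Samhd1 was called under 15 of 19 alternative settings, Cmpk2 and Irf8 under 14, 102860_at under 11 and Gbp3 under 10. The differences themselves kept their sign in every setting and ranged from -4.25 to -3.49 for Samhd1, from -2.77 to -1.81 for Cmpk2, from -1.86 to -1.62 for Irf8, from -2.62 to -2.14 for Gbp3 and from -2.40 to -1.90 for 102860_at.

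Just outside the threshold stood Rsad2, the antiviral enzyme viperin, with a difference of -3.41 ± 0.48 (SE; limma adjusted p = 0.0676), and Ifit2, an interferon-induced RNA-binding protein, with -1.81 (adjusted p = 0.0950). Gas6, a ligand of the TAM receptor kinases, followed with +1.28 ± 0.19 (SE; limma adjusted p = 0.0950). It read 136 and 123 after PBS and 302 and 251 after IL-6 in control mice, and 161 and 160 after PBS and 137 and 144 after IFN-γ. Its IL-6 arrays stood above all others, and its IFN-γ arrays stood slightly below their own PBS arrays. Gas6 also had the smallest adjusted p of the IL-6 response, 0.168 by limma, for a 2.13-fold higher mean.

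Size alone did not order the calls. The largest differences were those of Gbp2, another guanylate-binding GTPase, and of Cxcl9, a chemokine that attracts T cells. Gbp2 read 43.8 and 50.3 after PBS and 144 and 61.3 after IL-6 in control mice, and 49.6 and 49.1 after PBS and 2591 and 2298 after IFN-γ. The 2 IL-6 arrays were far apart. So were the PBS arrays of albumin-cre(+) Socs3(-/fl) mice, 206 and 53.1, which enter only the error estimate. The difference of -4.63 had an SE of 0.80 (limma adjusted p = 0.184). Cxcl9 read 37.1 and 35.1, then 138 and 50.6, in control mice, and 36.6 and 36.1, then 1687 and 1771, in Ifng-null mice, a difference of -4.36 ± 0.75 (SE; adjusted p = 0.184). Cxcl9 read 138 and 43.8 after PBS in the Socs3(-/fl) mice. In both genes the IFN-γ arrays stood far above the control IL-6 arrays.

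**Figure D2:**
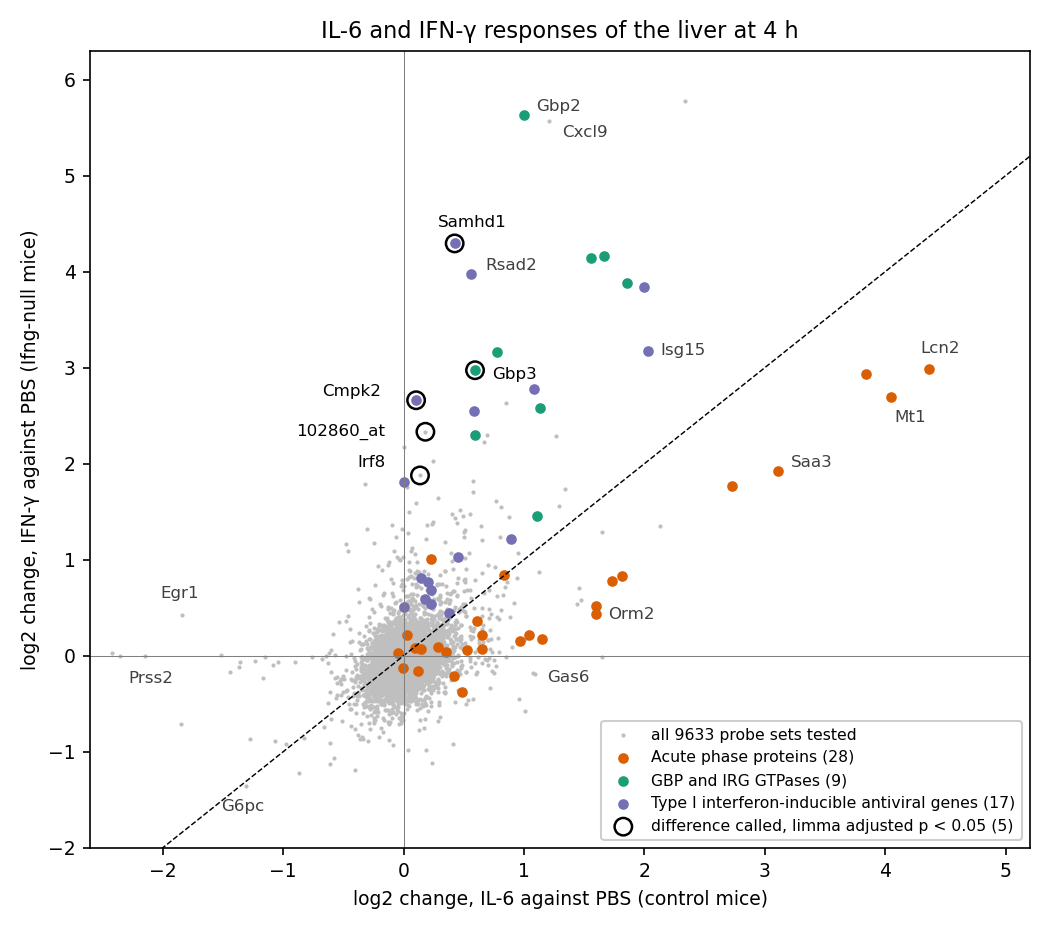
Each point is a probe set, with its log2 change after IL-6 in control mice on the horizontal axis and after IFN-γ in Ifng-null mice on the vertical axis, as means of 2 arrays against 2. Dashes mark equal responses, the 5 circled probe sets are those called different, and of the coloured lists the GTPases lie above the dashes and 24 of 28 acute phase genes below them.

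Across all probe sets the responses were alike in part. The responses of the 9633 probe sets correlated with Pearson's r of 0.455 and Spearman's rho of 0.228, a description across probe sets that share the same 8 arrays. Without the first IL-6 array the values were 0.284 and 0.105, and without the second IFN-γ array they were 0.327 and 0.0516. The mean reached at least 2-fold above PBS for 36 probe sets after IL-6 and for 87 after IFN-γ, and 21 were in both sets, 58.3% of the first and 24.1% of the second. At least 2-fold below PBS were 18 probe sets after IL-6 and 6 after IFN-γ, with 1 in both, and none lay 2-fold up in 1 response and 2-fold down in the other. The 18 include pancreatic genes that were bright on the second control PBS array, as described below. The difference had a median of 0.03 and its median SE was 0.202. Its 95% interval lay within 1 log2 unit of 0 for 8544 probe sets, 88.7%, and 18 probe sets had a difference of at least 1 and 73 of at most -1.

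Both cytokine arrays lay above both PBS arrays for 1214 probe sets after IL-6 (12.6% of those tested), for 923 after IFN-γ (9.58%) and for 279 in both responses (2.9%). They lay below for 1376 (14.3%), 1636 (17.0%) and 355 (3.69%).

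By itself the IFN-γ response held 63 calls, 0.654% of the probe sets: 59 rose (0.612%) and 4 fell (0.0415%). Without the first or second Ifng-null PBS array 21 and 20 were called, and without the second IFN-γ array 22. The IL-6 response of control mice held none by limma, with a smallest adjusted p of 0.168 and 248 probe sets at an unadjusted p under 0.05. Without the second IL-6 array, 8 probe sets were called higher after IL-6. The 59 probe sets that rose after IFN-γ also tended to read higher after IL-6: 52 of them, 88.1%, had a positive IL-6 response, against 45.1% of all tested. In 39, 66.1%, both IL-6 arrays lay above both PBS arrays, against a background of 12.6%. Their median response was 0.49 to IL-6 and 1.52 to IFN-γ, and in none was the IL-6 response the larger. Because these 59 were chosen by their rise after IFN-γ, a larger response to IFN-γ was favoured in advance. The first IL-6 array carried more of their IL-6 response, with a median of 0.64 over the PBS mean against 0.28 on the second. Isg15, a ubiquitin-like interferon-induced protein, read 1635 on the first and 299 on the second IL-6 array, after 182 and 161 with PBS.

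The 4 genes that fell after IFN-γ read lower after IL-6 too, where 45.1% of all probe sets had a positive response. Fam107b had log2 changes of -1.12 after IFN-γ and -0.61 after IL-6, Tbcel, a regulator of tubulin, -0.88 and -0.29, Paqr7, a membrane progestin receptor, -0.67 and -0.23, and Vcl, the adhesion protein vinculin, -0.67 and -0.16. The falls were near the threshold: of 19 alternatives, 5 lost the call of Fam107b, 7 that of Tbcel and 8 each those of Paqr7 and Vcl. None of the IL-6 changes was called, and the second probe set of Vcl read -0.19 after IFN-γ and -0.10 after IL-6.

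The guanylate-binding and immunity-related GTPases, which attack intracellular pathogens, were the list with the most negative median difference. The list also counts Gm9706, on chromosome 17, which was not shown to be such a GTPase. All 9 measured members rose after IFN-γ, by a median of 3.17, against a background of 0.612% of probe sets called higher. The call was lost under 10 of 19 alternatives for Gm9706 and 8 for Ifi47, including each that left out 1 Ifng-null array. After IL-6 all 9 had both arrays above both PBS arrays, against a background of 12.6% of probe sets. Their median response to IL-6 was 1.11, but none was called. The difference was called for 1, Gbp3, and in 8 the responses did not overlap with IFN-γ larger, against a background of 4.54% of probe sets. Their median difference was -2.38, against 0.03 over all probe sets. Taken over single arrays, the list's median difference lay between -3.11 and -1.24.

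Within this list the members differed. Igtp, an immunity-related GTPase, read 124 and 94.4 after PBS and 551 and 184 after IL-6, and 116 and 138 after PBS and 2295 and 2177 after IFN-γ, a difference of -2.58 (limma adjusted p = 0.592). Gbp7 had responses of 0.77 and 3.17, Gm9706 1.67 and 4.16, Ifi47 1.85 and 3.89, Irgm1 1.14 and 2.58 and Irgm2 0.60 and 2.30. The exception was Iigp1, whose responses on the brighter of its 2 tested probe sets were 1.11 and 1.46 and overlapped. Its other probe set is not described here. It read 2289 and 1782 after PBS, 5695 and 3328 after IL-6, 2311 and 2303 after PBS in Ifng-null mice, and 6324 and 6373 after IFN-γ. Iigp1 was thus already bright under PBS in both genotypes, and its first IL-6 array came close to the IFN-γ arrays. Its difference of -0.35 turned to +0.03 without the second IL-6 array.

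Of 17 antiviral genes known from type I interferon responses, all had a positive IFN-γ response and 7 rose, with a median of 1.22, against 38.4% of all probe sets positive and 0.612% called higher. The median IL-6 response was 0.38 and none was called. The difference was called for Samhd1 and Cmpk2, and in 10 the responses did not overlap with IFN-γ larger, against a background of 4.54%. Among the 10 were Mx1 and Ifit2, which were below the floor on all control arrays. Their IL-6 responses are unknown and show no spread, so IFN-γ arrays above their own PBS arrays were enough for non-overlap. Rsad2 read 73.5 and 103 after PBS and 136 and 121 after IL-6, and 118 and 137 after PBS and 1696 and 2351 after IFN-γ. Its IL-6 arrays lay in the range of the Ifng-null PBS arrays. Usp18, the enzyme that removes ISG15 from proteins, had responses of 0.59 and 2.55, and Ifit3 1.08 and 2.78. The call of Ifit3 after IFN-γ was lost under 13 of 19 alternatives, including each that left out 1 array.

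Ifit1 and Isg15 had the largest IL-6 responses on this list, and in both the first IL-6 array was the higher, with both IL-6 arrays above the control PBS arrays. Ifit1 read 58.9 and 52.4 after PBS, 426 and 116 after IL-6, 88.2 and 108 after PBS in Ifng-null mice, and 1176 and 1656 after IFN-γ. Its difference was -1.84 ± 1.17 (SE; limma adjusted p = 1.0). That error also took in 530 and 67.8 after PBS in albumin-cre(+) Socs3(-/fl) mice, outside the comparison. The Isg15 difference was -1.14 ± 0.86 and turned to +0.08 without the second IL-6 array. Ifit2 was at or below the floor on all control arrays, so its IL-6 response is unknown and its SE may be too small.

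Among 8 interferon regulatory factors, Irf8 was called and Irf1, which starts much of the IFN-γ programme, had responses of 0.10 and 1.59 that did not overlap (difference -1.48). Irf1 read 246 and 203 after PBS and 266 and 218 after IL-6, but 536 and 801 after IFN-γ, against 200 and 237 with PBS in Ifng-null mice. Irf7, which amplifies type I interferon, read 359 and 198 after IL-6 against 169 and 138 after PBS. Its responses of 0.80 and 1.23 overlapped.

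The chemokine list had 23 measured genes, with a median difference of -0.03, and no difference was called. Responses did not overlap with IFN-γ larger in Cxcl9, Cxcl10, Ccl2 and Il1rn, against a background of 4.54% of probe sets. With IL-6 larger they did not overlap in Cxcl12, against a background of 5.17%. Cxcl10 and Ccl2 were below the floor on all 6 arrays without IFN-γ, so their IL-6 responses are unknown and show no spread. Ccl2, a chemokine for monocytes, read 115 and 193 after IFN-γ. With PBS set at the floor, the mean of log2 values after IFN-γ was at least 4.50-fold higher. Ccl2 rose after IFN-γ (limma adjusted p = 0.00717), though groups at the floor show no spread and this p may be too small.

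In antigen presentation no difference was called. Of the 4 immunoproteasome genes measured, which trim peptides for presentation, 3 rose after IFN-γ, against a background of 0.612% of probe sets called higher. The responses of these 3, Psmb8, Psmb9 and Psmb10, did not overlap with IFN-γ larger, against a background of 4.54%. Psmb9 read 209 and 147 after PBS and 366 and 212 after IL-6, and 186 and 202 after PBS and 831 and 987 after IFN-γ. The IL-6 arrays of Psmb9 lay above its control PBS arrays and below its IFN-γ arrays. The difference was -1.56 ± 0.34 (SE; limma adjusted p = 0.514) for Psmb9, -1.13 for Psmb8, -1.07 for Psmb10 and -0.22 for Psme1, a subunit of the proteasome activator.

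Tap1, which pumps peptides into the endoplasmic reticulum for class I molecules, rose after IFN-γ and was the only called gene of the class I list. It read 149 and 127 after PBS and 341 and 180 after IL-6, and 143 and 151 after PBS and 985 and 841 after IFN-γ, a difference of -1.78 (limma adjusted p = 0.257). A dimmer second probe set of Tap1 had a difference of -0.16. Tap2, its partner, had a difference of -0.65. Over the 11 class I genes the median difference was -0.12, and over 10 class II genes it was -0.03, with single genes between -0.35 and +0.09. At 4 h no class II gene was called in either response.

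The acute phase proteins, secreted by hepatocytes in inflammation, leaned the other way without a call. Of 28 measured genes, 24 had the larger response to IL-6, against 57.3% of all probe sets with a positive difference. The median response was 0.65 to IL-6 and 0.22 to IFN-γ, with a median difference of 0.61. In 9 the responses did not overlap with IL-6 larger, against a background of 5.17% of probe sets, and in Il1rn, the IL-1 receptor antagonist, with IFN-γ larger. The 95% interval of the difference excluded 0 for 4 of the 28, and the median half-width was 0.70, so a difference of this size was within the error for most members. Over single arrays the list's median difference ran from -0.06 to 0.89.

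Orm2, an acid glycoprotein that carries drugs in plasma, read 593 and 385 after PBS and 1335 and 1566 after IL-6, and 499 and 420 after PBS and 567 and 671 after IFN-γ. Both IL-6 arrays stood above all 6 others. The difference was 1.17 ± 0.67 (SE; limma adjusted p = 1.0). That error also took in 965 and 3072 after PBS in albumin-cre(+) Socs3(-/fl) mice, outside the comparison. Hamp, the iron hormone hepcidin, read 2169 and 1482 after PBS and 4683 and 3377 after IL-6, but 3034 and 2365 after PBS and 2604 and 3520 after IFN-γ. Its second IL-6 array lay below its second IFN-γ array, and its PBS arrays were higher in Ifng-null than in control mice. The difference of 0.97 had a 95% interval of 0.13 to 1.82. Itih4, an inter-alpha-trypsin inhibitor chain, had responses of 0.96 and 0.15, and Apcs, serum amyloid P and a main acute phase protein of mice, 1.73 and 0.78. Serpina3n, a protease inhibitor, had responses of 1.81 and 0.83.

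**Figure D3:**
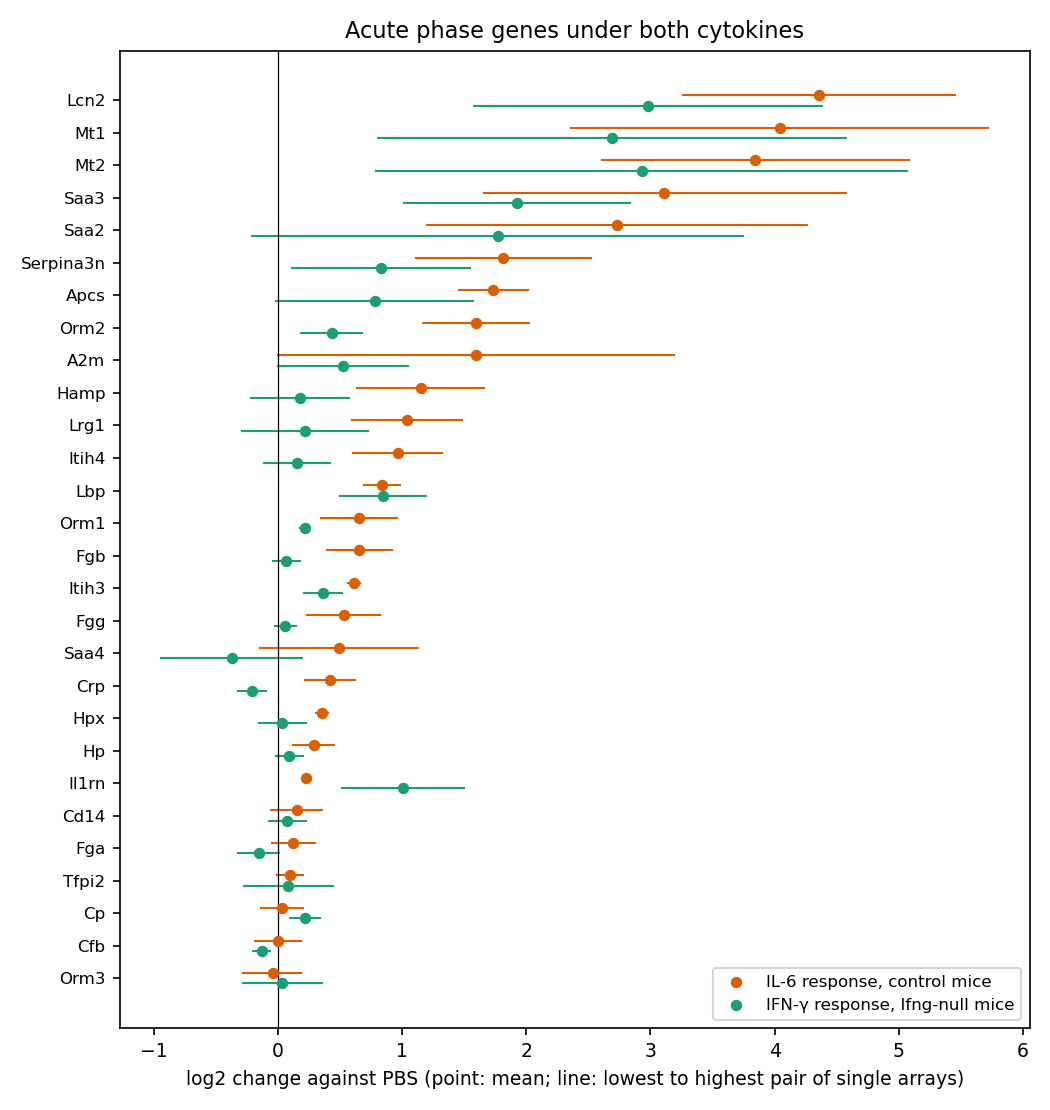
The log2 change against PBS of the 28 acute phase genes, with IL-6 in control mice in orange and IFN-γ in Ifng-null mice in green. Points are means of 2 arrays against 2, lines run from the lowest to the highest pair of single arrays, and the 9 genes whose responses do not overlap with IL-6 larger include Orm2, Hamp and Itih4.

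The acute phase genes with the largest responses to IL-6 had positive responses to IFN-γ as well, though none on the list was called. Lcn2, an iron-siderophore binding protein, read 53.5 and 31.6 after PBS and 1454 and 514 after IL-6, and 120 and 31.8 after PBS and 359 and 692 after IFN-γ. All cytokine arrays of Lcn2 lay above all PBS arrays, and the responses of 4.36 and 2.98 overlapped. A second probe set of Lcn2 read only 0.12 and -0.15. Saa3, an amyloid A protein, had responses of 3.11 and 1.93, and Saa2 of 2.73 and 1.77. Saa2 read 3588 and 479 after PBS and 3101 and 6434 after IFN-γ, so these groups overlapped.

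Mt1 and Mt2, metal-binding metallothioneins, showed how much the PBS arrays mattered. Mt1 read 1197 and 176 after PBS and 9294 and 6158 after IL-6, and 3654 and 358 after PBS and 6397 and 8525 after IFN-γ. The first PBS array was the higher in both genotypes, and the difference of 1.35 (SE 1.44) turned to -0.32 without the first Ifng-null PBS array. Lbp, the lipopolysaccharide-binding protein, was the member closest to 0, with responses of 0.84 and 0.85 and a 95% interval of the difference from -0.68 to 0.66.

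**Figure D4:**
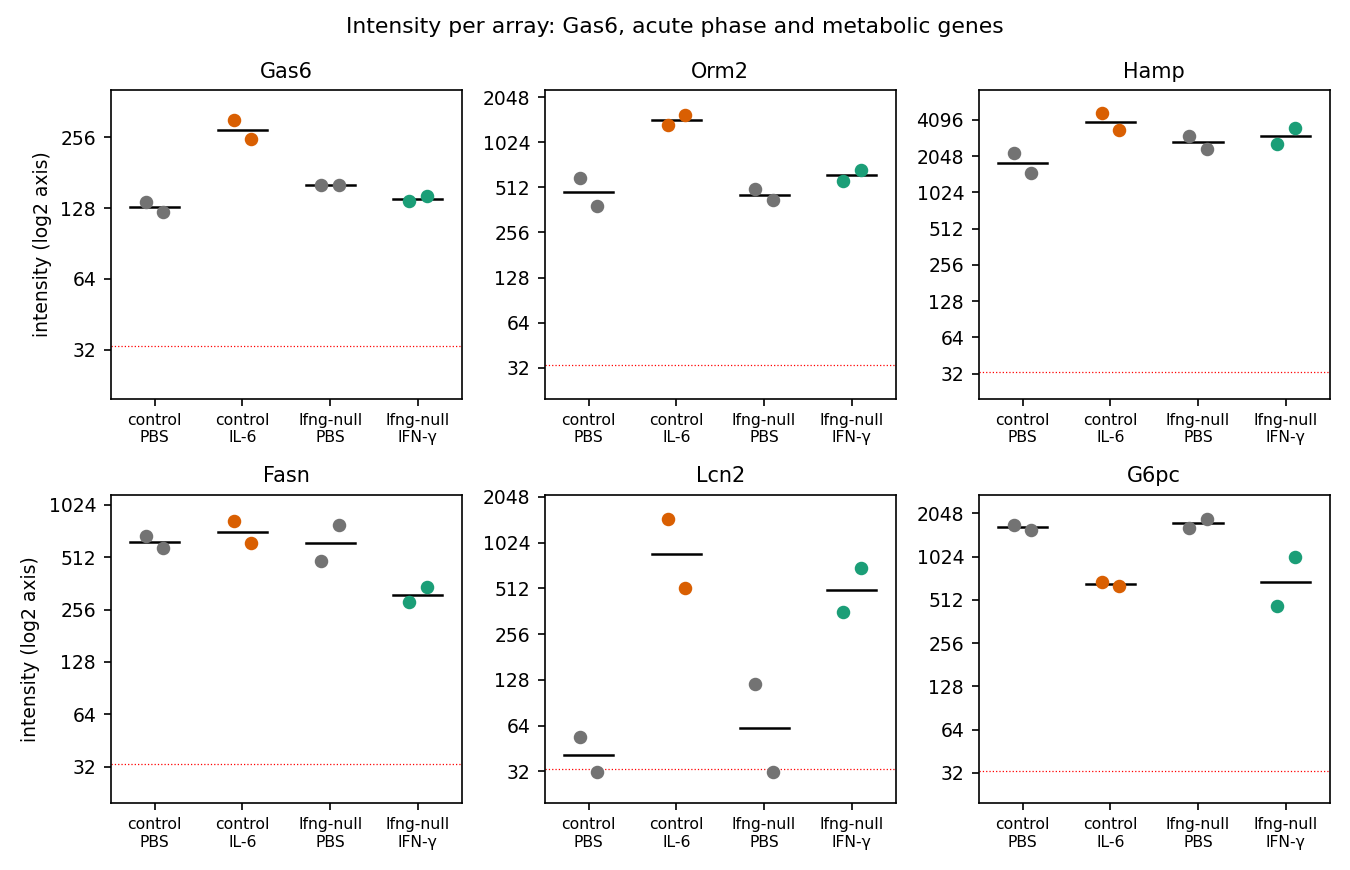
Intensity per array on log2 axes for Gas6, the acute phase genes Orm2, Hamp and Lcn2, and the metabolic genes Fasn and G6pc. Points are single arrays, black bars the mean of log2 values and the dotted red line the floor of 33.1; the IL-6 arrays are the highest for Gas6 and Orm2, and the G6pc arrays are low under both cytokines.

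Of 24 genes of the JAK-STAT pathway, none was called in either response or in the difference, and the median difference was -0.02. Socs3 itself read 124 and 117 after PBS and 167 and 139 after IL-6, and 163 and 114 after PBS and 133 and 130 after IFN-γ. The IL-6 arrays of Socs3 lay above the control PBS arrays, but 1 Ifng-null PBS array was as high. The difference was 0.39 (95% interval -0.17 to 0.95), and 0.30 on its second probe set. Ifng was below the floor on all arrays, at 7.81 or less, so it does not check the genotype label.

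Socs2 and Socs1 read higher after IFN-γ than after PBS. Socs2, which restrains growth hormone signalling, read 235 and 146 after PBS, 122 and 291 after IL-6, 99.1 and 91.4 after PBS in Ifng-null mice, and 323 and 319 after IFN-γ. The Ifng-null PBS arrays were the lowest and control arrays scattered, and the difference of -1.73 had a limma adjusted p of 1.0. Socs1 read 149 and 173, 169 and 166, 146 and 167, and 265 and 419 in the same order, a difference of -1.03 ± 1.11 (SE). That error also took in 219 and 2150 after IL-6 in albumin-cre(+) Socs3(-/fl) mice, outside the comparison. Stat3 had responses of 0.65 and 0.28, and Ptpn1, a phosphatase that acts on JAK kinases, 0.94 and 0.81.

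Among 30 STAT3-linked and immediate-early regulators the median difference was -0.12 with no call. Egr1, an immediate-early transcription factor, read 326 and 728 after PBS and 146 and 126 after IL-6, and 203 and 136 after PBS and 197 and 253 after IFN-γ. Control PBS arrays were the highest of the 8, and the difference was -2.27 ± 0.53 (SE; limma adjusted p = 0.648). Atf3, a stress-induced transcription factor, had responses of -0.02 and 1.32, with differences of -0.38 and -0.24 on its other probe sets.

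No gene on the lists of glucose production, cholesterol and fatty acid synthesis, fatty acid oxidation and cytochrome P450 enzymes was called in either response or in the difference. Among the 20 cholesterol and fatty acid synthesis genes measured, the difference was positive in 19, against 57.3% of all probe sets. The median difference was 0.53, from a median response of 0.15 to IL-6 and -0.44 to IFN-γ, and ran from -0.11 to 1.21 over single arrays. Lss, Fasn, Elovl6 and Gpam had responses that did not overlap with IL-6 larger, against a background of 5.17%. Fasn, the fatty acid synthase, read 675 and 581 after PBS and 830 and 614 after IL-6, and 486 and 785 after PBS and 283 and 345 after IFN-γ. Its IFN-γ arrays were the lowest of the 8, and the difference was 1.17 ± 0.50 (SE; limma adjusted p = 1.0). Hmgcs1, an early enzyme of sterol synthesis, had a difference of 0.96 ± 0.72. That error also took in 332 and 1233 after PBS in albumin-cre(+) Socs3(-/fl) mice, outside the comparison. For this list the 95% interval lay within 1 log2 unit of 0 for only 2 of 20 genes.

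G6pc, the last enzyme of glucose release, was low after both cytokines. It read 1711 and 1569 after PBS and 682 and 641 after IL-6, and 1630 and 1877 after PBS and 462 and 1017 after IFN-γ. All 4 cytokine arrays lay below all 4 PBS arrays. The responses of -1.31 and -1.35 were not called, and their difference of 0.04 had a 95% interval of -1.41 to 1.49. Slc2a2, the glucose transporter GLUT2, had responses of -0.40 and -1.19, and Igfbp1, an insulin-repressed binding protein, -0.46 and 1.09. Of 31 complement and coagulation genes, 28 had a positive difference, against 57.3% of all probe sets, but the median was only 0.13. That median ran from -0.31 to 0.60 over single arrays and was -0.000109 without the second IL-6 array. C4bp and F2, prothrombin, had the largest, 0.43 and 0.38.

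Further genes had responses that did not overlap with IL-6 larger. Dmbt1, a secreted scavenger receptor protein, had a difference of 1.59 ± 0.95 (SE), with control PBS arrays of 42.4 and 101. Its responses were 1.01 to IL-6 and -0.57 to IFN-γ. Dnajb9, a chaperone of the endoplasmic reticulum, had differences of 1.41 and 1.25 on its probe sets, while Hspa1b, a cytosolic heat shock protein with overlapping responses, had -1.36. Ireb2, an iron regulatory protein, read 126 and 70.3 after PBS and 125 and 158 after IL-6, and 108 and 88.8 after PBS and 72.6 and 70.3 after IFN-γ, a difference of 1.03. Fermt2 and Phldb2, which act at cell adhesions, had differences of 0.90 each. The IL-6 and IFN-γ responses were 0.43 and -0.48 for Fermt2 and 0.13 and -0.77 for Phldb2. Among the largest negative IL-6 responses was that of Ddc, an amino acid decarboxylase, with responses of -1.85 and -0.72.

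**Figure D5:**
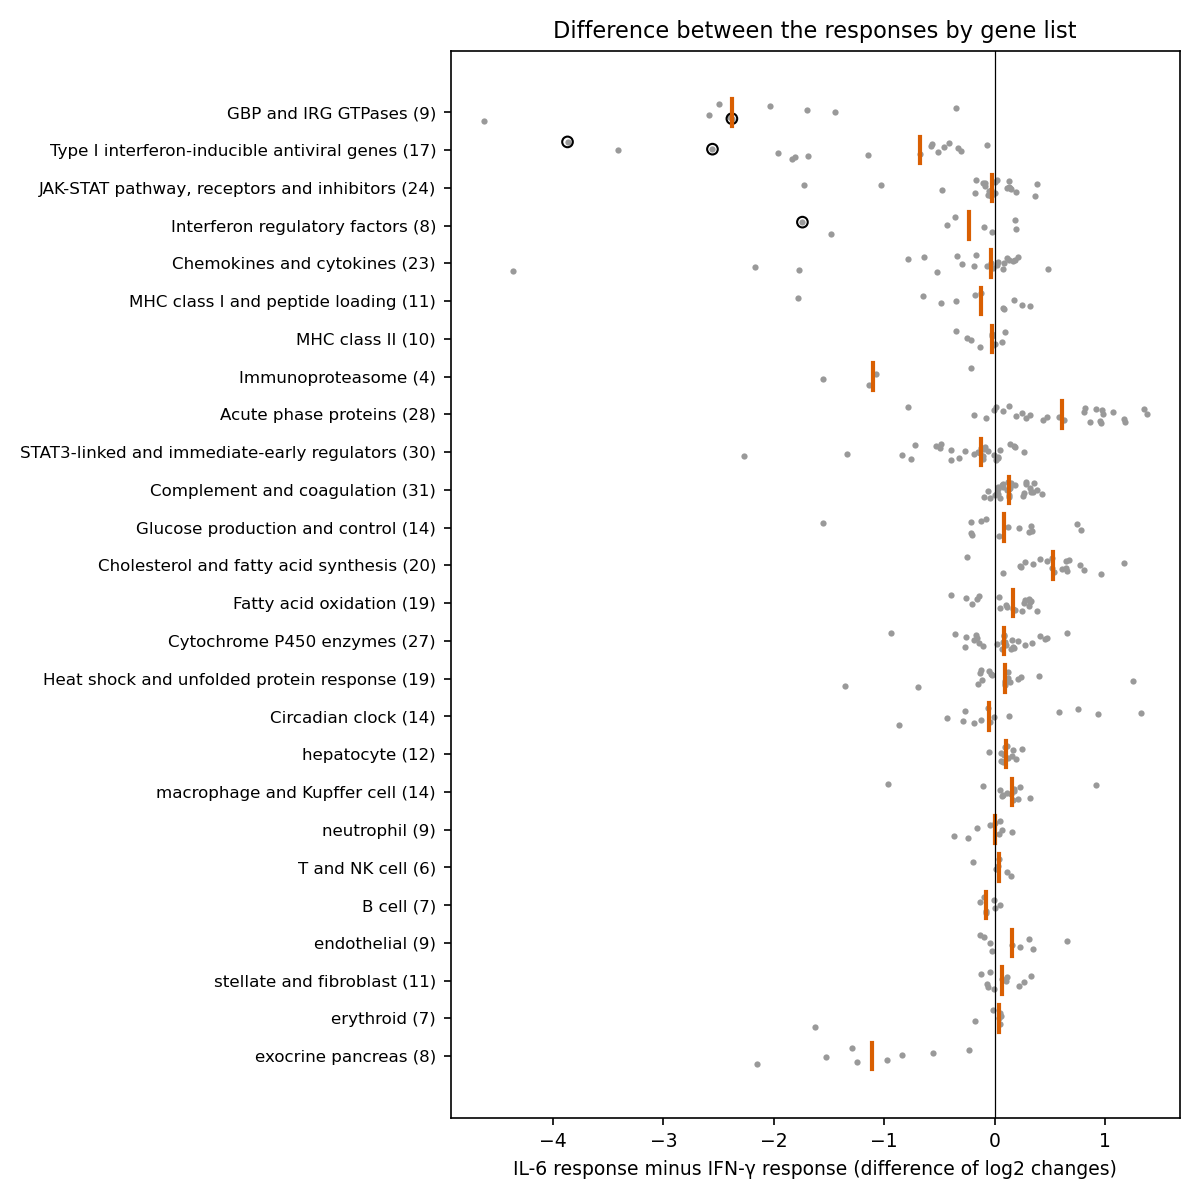
Difference between the responses (IL-6 minus IFN-γ, log2 units) for the measured members of 26 gene lists, with the number measured in brackets. Grey points are genes, orange bars list medians and black circles genes called by limma; the GTPase list lies farthest to the left, with a median of -2.38, and the acute phase list farthest to the right, at 0.61.

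The levels reached after the cytokine were also compared directly, as the IFN-γ group minus the IL-6 group. A negative value here means a higher level after IL-6. After IFN-γ 34 probe sets differed from IL-6 (0.353% of those tested): 32 were higher in the IFN-γ group (0.332%) and 2 in the IL-6 group (0.0208%). All 5 probe sets with a called difference of responses were among them, and 29 of the 34 were also called in the IFN-γ response. The 2 higher after IL-6 were Gas6, at -0.97 (limma adjusted p = 0.0194), and Rara, a retinoic acid receptor, at -0.79 (adjusted p = 0.0164). Rara read 91.6 and 90.0 after PBS and 94.1 and 103 after IL-6, and 77.7 and 91.4 after PBS and 56.7 and 56.9 after IFN-γ, so the gap lay in the low IFN-γ arrays. The call of Rara was lost under 8 of 19 alternatives and that of Gas6 under 6, among them leaving out any 1 of the 4 cytokine arrays, and with the floor at the 50th percentile the Rara value was -0.23. Without the second IL-6 array 14 of these levels were called different, and without the second IFN-γ array 9. Between the genotypes after PBS no probe set was called by limma, the smallest adjusted p being 0.873, with 298 at an unadjusted p under 0.05.

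Over promoters, 43 of the 51 genes that rose after IFN-γ had an entry in the RefSeq table, and 27.9% of these held a GAS and 32.6% an ISRE match, 51.2% either. Of 5554 tested genes with an entry, 6.73%, 3.26% and 9.47% did. Of the GTPase list, 6 of 7 genes with an entry held an ISRE match. Of 22 acute phase genes with an entry, 22.7% held a GAS and 9.09% an ISRE match. Genes of a family can share promoter sequence, and no match says only that these letters are not in the window.

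The arrays were checked for other cells. The 12 hepatocyte markers had summed intensities of 46695 to 58231 on the 8 arrays and median responses of -0.13 and -0.26. Summed macrophage markers in control mice were 3695 and 3249 with PBS and 3675 and 3708 with IL-6, and in Ifng-null mice 3428 and 4491 with PBS and 3144 and 4800 with IFN-γ. Of the 14 macrophage markers, 12 had a positive difference, against 57.3% of all probe sets, and none was called. Their median difference was 0.16 and ran from -0.15 to 0.55 over single arrays. At the ends of the list, Mpeg1, a perforin of macrophages, had a difference of -0.97, and Cd5l, secreted by Kupffer cells, of 0.92. The IL-6 and IFN-γ responses were 0.10 and 1.065 for Mpeg1 and 0.17 and -0.75 for Cd5l. The part of these shifts in the results was not tested. Markers of neutrophils, T and NK cells, B cells, endothelium and stellate cells had median differences between -0.08 and 0.16. In whole liver, fewer cells of a type and less RNA per cell cannot be told apart.

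The second control PBS array carried exocrine pancreas RNA signals: Prss2, a trypsinogen, read 651 there and at most 27.2 on the other 7 arrays. The 8 pancreas markers summed to 8691 on that array and to 1486 to 1683 on the others. Their median difference was -1.11 with that array and 0.04 without it, and 6 of the 10 largest negative IL-6 responses were of pancreatic genes (Prss2, Ctrb1, 2210010C04Rik, Cela1, Reg1 and Reg2). Hba-a1, a haemoglobin gene, read 6389 on the same array and 3649 on the second IL-6 array, against 316 to 1298 on the others. Without that PBS array and a pancreas-bearing array of another group, 1 difference was called, that of Irgm2. The differences of Samhd1, Cmpk2, Gbp3, Irf8 and 102860_at were in the ranges given above without it, and their calls were lost.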

How the data were processed

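Total liver RNA was hybridised to Affymetrix mouse arrays. The authors deposited linear-scale intensity values, 1 for each probe set on each array. Their software and scaling are not given here. Array medians were alike and the values were used as deposited. Groups and replicate numbers came from the sample labels. Gene symbols came from the platform annotation: 10833 of 12422 probe sets had 1 symbol, 396 several and 1193 none. Probe sets with several were left unnamed. By Entrez identifier 10817 matched a current gene and 0 symbols changed.

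Intensities were floored at their 25th percentile over all arrays (33.1) and log2 was taken. limma 3.58.1 in R 4.3.3 (lmFit, contrasts.fit, eBayes) fitted 6 group means to all 12 arrays. The two-sided p-values were adjusted over 9633 probe sets (Benjamini-Hochberg). Changes near the floor are understated, and a group at the floor has no spread. The code was tested on simulated data. A gene on a list was represented by its brightest probe set.

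Named were, per direction, called probe sets and then the largest non-overlapping differences up to 10, up to 4 members per list, the largest changes of each response, Socs3 and Ifng. Stat3, Ptpn1, Lbp, Itih4, Il1rn, Irf1, Irf7, Irgm1, Irgm2, Iigp1, Usp18, Ifit2, Psmb10, Psme1, genes listed only for non-overlap and the Irf8 promoter were named after their values were seen. Members and lists were chosen with earlier results of these data known. Alternatives are given in the closing section.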

Additional observations from a re-analysis of the deposited data

Results flagged for a closer look

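The difference between the IL-6 and the IFN-γ response passed the test of the difference itself for 5 probe sets. The values were -3.87 for Samhd1, -2.56 for Cmpk2, -2.38 for Gbp3, -2.15 for 102860_at and -1.74 for Irf8, on the log2 scale, each with the larger response to IFN-γ (limma adjusted p from 0.00601 to 0.0189).

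The 4 arrays of albumin-cre(+) Socs3(-/fl) mice did not enter the comparison, and in them both IL-6 arrays lay above both PBS arrays for the same 5 probe sets. The share of all probe sets with this pattern in these arrays was not counted, so it does not set the 5 apart. There IL-6 minus PBS on the log2 scale came to 2.80 for Samhd1, 2.67 for Cmpk2, 2.81 for Gbp3, 0.40 for 102860_at and 0.24 for Irf8. In control mice the changes after IL-6 were 0.42, 0.10, 0.59, 0.18 and 0.14 in the same order. In Ifng-null mice after IFN-γ they were 4.29, 2.66, 2.97, 2.33 and 1.88. The cause was not tested.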

How the results depend on the processing

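The 5 calls of the difference became 8 with the floor at the 50th percentile, 0 without a filter on low values and 1 without the PBS arrays with Prss2 above 300, and ranged from 0 to 13 when 1 array was left out. Calls of the IL-6 response ranged from 0 to 8 when 1 array was left out and were 0 in the other alternatives. The 63 calls of the IFN-γ response became 8 without a filter, 28 with array weights, 18 with only the 8 arrays compared and 19 without the arrays with Prss2 above 300, and ranged from 20 to 63 when 1 array was left out. The 34 calls between the cytokine groups became 7, 15 and 16 without a filter, with 8 arrays and without the arrays with Prss2 above 300, and ranged from 9 to 45 when 1 array was left out. No probe set was called between the genotypes after PBS under the 19 alternatives. Of 104 results for single genes, 61 kept their direction and their side of the threshold in all 19 (18 for Prss2, which gave no value in 1) and 11 reversed in at least 1. Of 26 list medians of the difference 15 moved by at least their SD over single arrays in 1 or more alternatives, and they ranged from 0.221 to 0.759 for acute phase proteins and from -0.193 to 0.0744 for class I genes. Without the arrays with Prss2 above 300 the difference was -0.0306 for Mt1, -0.0546 for Mt2, -0.33 for Saa2, 0.545 for Hba-a1, -0.0207 for G6pc and -0.17 for Ptpn1, and with quantile normalization it was -0.0321 for G6pc. When 1 array was left out it ranged from -0.32 to 3.03 for Mt1, from -3.79 to 0.545 for Hba-a1, from -1.12 to 2.95 for Mt2, from -0.14 to 2.51 for Saa3, from -0.49 to 2.41 for Saa2, from -2.37 to 0.0824 for Isg15, from -0.53 to 0.61 for G6pc, from -0.74 to 0.0348 for Iigp1, from -0.47 to 0.0383 for Psme1, from -0.27 to 0.53 for Ptpn1 and from -0.26 to 0.24 for Lbp. The cause was not tested. Where an array was left out, the lone array of its group was assumed to vary like the other groups. The labels do not say what the replicate numbers share. Deviations of same-numbered arrays correlated at 0.138 between PBS and IL-6 in control mice and 0.665 between PBS and IFN-γ in Ifng-null mice, with 2 arrays per group, and with the replicate number as a block the same 5 differences were called, with 0, 60, 0 and 35 calls for the IL-6 response, the IFN-γ response, the genotypes after PBS and the cytokine groups. Values at the floor show neither a response nor its spread.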
